A study of Gallus gallus with 2 samples.

Results

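The 67 genes described here are named for proteins of the mitochondrial ribosome. They were chosen by name, as every gene whose platform symbol begins with MRPL or MRPS followed by a number, out of 13009 genes with a symbol on the chicken genome array. Of the 67, 43 are named for the large subunit and 24 for the small subunit. Each gene was represented by 1 probe set, the one with the highest mean log2 signal over both arrays. RNA came from DT40, an established chicken B cell line derived from the bursa of Fabricius. A wild-type clone was set against a clone deficient for PTIP (written PTIP-/-/- in the labels; the gene is PAXIP1), both grown at the same temperature. There was 1 array per genotype, so clone and genotype cannot be told apart, no difference below has a replicate check, and none carries a p-value. PTIP carries BRCT domains, acts at damaged DNA and belongs to a complex that methylates histone H3. In such bulk RNA, fewer cells of a type and less RNA per cell cannot be told apart.

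Mitochondria carry their own ribosomes, which translate the few membrane proteins of the respiratory chain and ATP synthase that are encoded in mitochondrial DNA. The RNA of these ribosomes comes from the mitochondrial genome, whereas all of their proteins are encoded in the nucleus, made in the cytosol and imported. The large subunit forms peptide bonds and releases the chain through an exit tunnel towards the inner membrane, and the small subunit binds the mRNA and holds the decoding centre. Many members descend from bacterial ribosomal proteins, and the others were added in the mitochondrial lineage. Each ribosome holds 1 large and 1 small subunit.

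As background to all values, the deposited intensities had the same trimmed mean (499.9) in both arrays, so a difference in total RNA per cell cannot be seen. A signal of at least 31.0 (percentile 40 of the values without controls), the floor, was called measured. The probe sets for foreign reporter sequences reached 131.5 outside 1 bright signal. That signal was 2675 in 1 array, while the same probe set had 5.54 in the other. It was left out, and 131.5 is called the highest reporter signal below. Fold differences of members with a signal under 131.5 are therefore given as bounds or not at all. All 27 probe sets for the spiked-in hybridisation transcripts were higher in the PTIP deficient array, with a median log2 ratio of 0.30. Of the 36 probe sets for the labelling control transcripts, 26 were higher there, with a median of 0.08. For RNA integrity, the actin 3' to 5' signal ratio was 1.20 for the wild-type array and 1.09 for the other. PAXIP1 itself had signals of 1045 and 593 with its only measured probe set, 56.8% of wild-type, and whether that probe set lies in the disrupted part was not analysed here. Of the 8 B cell markers on the array, 7 had signals at or above 131.5 in both arrays, and PAX5 had 96.7 and 122. Their summed signal was 35454 in wild-type cells against 21403 in PTIP deficient cells, and 6 of the 8 had a log2 ratio below 0. Over 7 T cell markers the summed signal was 9091 and 16888 in the same order, most of it from CD3D, while CD4 and CD28 were under the floor in both. CD8A had 78.2 in wild-type cells against 563 in PTIP deficient cells, and CD5 had 73.3 against 303. Both of these wild-type signals were under 131.5. Of the 5 T cell markers measured in both arrays, 3 had a log2 ratio above 0 and 2 below. In wild-type cells 1 T cell marker reached 131.5, against 3 in PTIP deficient cells. The part of these markers in the results below was not tested. The erythroid, macrophage and epithelial markers on the array were under 131.5 in both arrays, and of 4 mesenchymal markers 1 reached it in wild-type cells against 2 in PTIP deficient cells.

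Most mitochondrial ribosomal protein genes had nearly the same signal in both clones. Of the 67 genes, 65 were measured in both arrays, 63 of these 65 (96.9%) lay within 1.5-fold, and 36 had a log2 ratio (PTIP deficient minus wild-type) above 0. The median log2 ratio of the 65 was 0.05, a 1.03-fold difference, beside 0.03 over all 9165 genes measured in both arrays. It was between 0.01 and 0.05 with each of the 4 other scalings that use the genes themselves and turned to -0.25 when the hybridisation controls were set to 0, where 5 of the 65 stayed above 0. The same setting placed the median of all other genes at -0.27. The members' median minus that of other genes lay between -0.00099 and 0.05 under the 5 scalings tried.

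With the values as deposited, no member with both signals at or above 131.5 was past 2-fold or past 1.5-fold in either direction. Counting every signal over the floor, 1 member (MRPL34, with both signals under 131.5) was past 2-fold in the higher and 0 in the lower direction. Over all genes measured, 5.03% passed 2-fold in the higher direction, and 4.46% passed it in the lower. At the 1.5-fold bar the counts over the floor were 2 higher (MRPL34 and MRPL21, neither shown to pass it by its bound) and 0 lower, beside 13.1% and 11.5% of all genes. With the hybridisation controls at 0, 7 members were at least 1.5-fold lower (MRPL1, MRPL32, MRPL40, MRPL41, MRPS10, MRPS12 and MRPS17), beside 24.7% of other genes. The share of genes with a ratio above 0 was 55.4% for the members and 52.6% for all genes. The members' probe sets have higher signals than those of most genes, so the same shares were taken over the 998 other genes whose mean signal lay between the members' quartiles of 2988 and 7008. Among those, the shares past 2-fold were 1.9% in the higher and 1.7% in the lower direction. Past 1.5-fold they were 6.71% and 6.91%, and 48.6% of the 998 lay above 0. In that set 86.4% lay within 1.5-fold. The interquartile range of log2 ratios was 0.33 for the members, 0.45 for these 998 genes and 0.60 for all genes. Whether the members' spread is narrower than that of other genes was not tested.

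**Figure D1:**
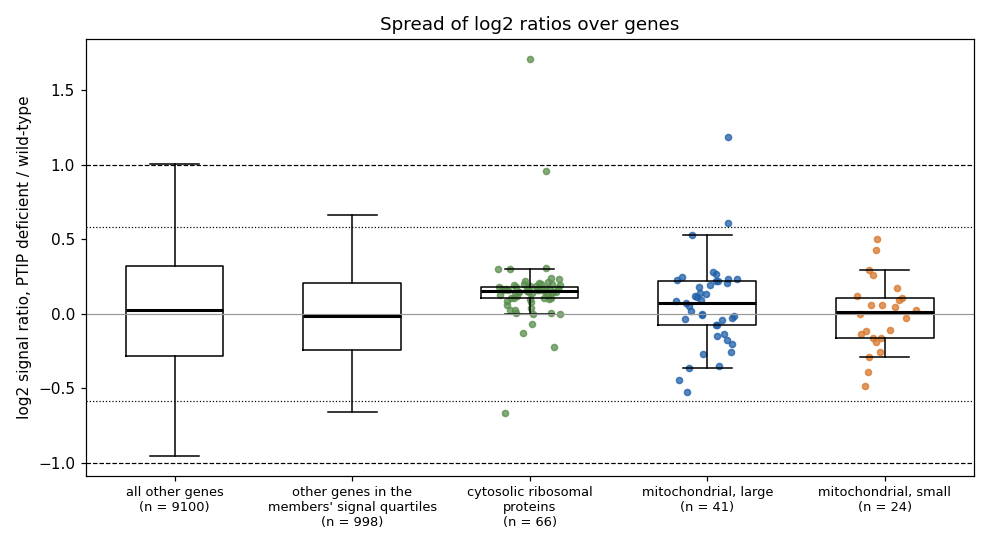
Log2 signal ratio (PTIP deficient over wild-type, vertical axis) for all other measured genes, other genes within the members' signal quartiles, cytosolic ribosomal proteins, and large and small subunit mitochondrial ribosomal proteins. Boxes show quartiles and median, whiskers percentiles 5 and 95, points single genes, and dashed and dotted lines 2-fold and 1.5-fold; the medians are 0.07 for the large and 0.01 for the small mitochondrial subunit and 0.15 for the cytosolic proteins.

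The ratios of large and small subunit genes overlapped over most of their range. The 41 measured large subunit genes had a median log2 ratio of 0.07, with 23 above 0. The 39 with both signals at or above 131.5 had a median of 0.05 and ranged from -0.53 to 0.53. The 24 small subunit genes, all measured, had a median of 0.01, with 13 above 0, and ranged from -0.49 to 0.50. The difference between the medians was 0.06. MRPS30 and MRPS18A sit in the large subunit of the mammalian mitochondrial ribosome despite their names. Counting them there left the medians at 0.07 and 0.01. MRPS30 (-0.03) lies below both medians and MRPS18A (0.10) above both, so that move could not change them. The difference was 0.12 with the mean of each gene's measured probe sets. It was 0.16 without the _s_at, _x_at and _a_at probe sets, which may match several transcripts, and turned to -0.06 when the median of each gene's chromosome was subtracted. The small subunit median itself changed sign, to -0.013, when both arrays were centred on their medians, and both subunit medians were below 0 with the hybridisation controls at 0.

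The genes were also divided by descent, using the names of the unified ribosomal protein nomenclature. The 36 measured members with a bacterial homologue had a median log2 ratio of 0.02, with 19 above 0, and the 27 that are specific to mitochondria had 0.06, with 15 above 0. Within the large subunit the medians were 0.03 for 24 genes of bacterial descent and 0.09 for 17 mitochondria-specific genes. Within the small subunit they were -0.04 for 12 and 0.01 for 10 genes. These medians differ by less than the spread of single genes within either class, but that spread does not measure the error of a median. Whether the classes differ was not tested. MRPS18A, a relative of bacterial S18, had signals of 6760 and 7265. MRPS36, now known in mammals as a subunit of the 2-oxoglutarate dehydrogenase complex and not of the ribosome, had signals of 1993 and 1994.

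**Figure D2:**
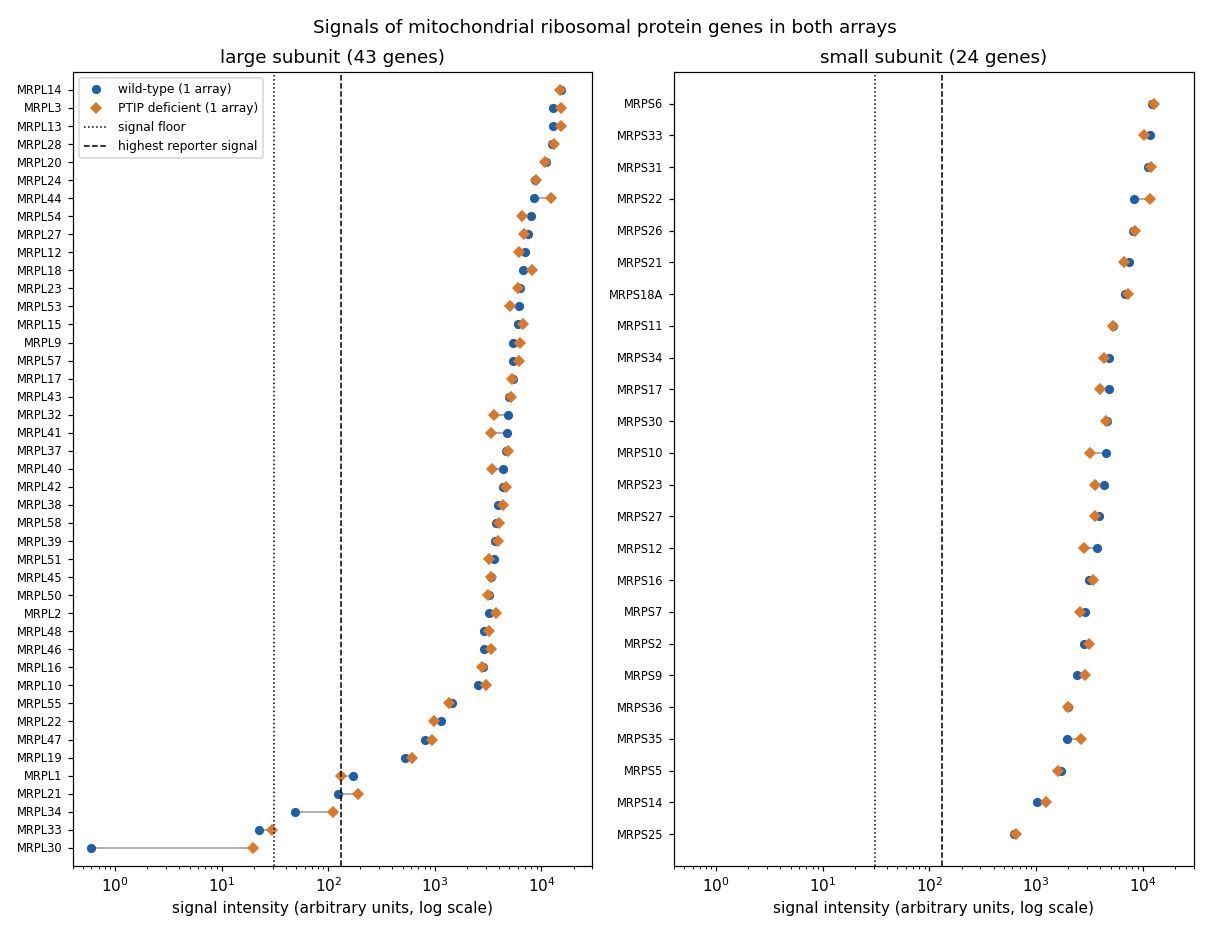
Signal intensity (arbitrary units, log scale) of every member in the wild-type array (circles) and the PTIP deficient array (diamonds), large subunit on the left and small subunit on the right. The dotted line is the floor of 31.0 and the dashed line the highest reporter signal of 131.5; the marks of most genes nearly coincide, and MRPL30, MRPL33, MRPL34 and MRPL21 have a signal under the dashed line. Order down the axis follows the wild-type signal, which depends on the probes and does not rank transcript levels.

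The lowest ratio of the large subunit belonged to MRPL41, a mitochondria-specific protein (Entrez gene 417261, chromosome 17). Its signal was 4798 in wild-type cells against 3333 in PTIP deficient cells, 1.44-fold lower. MRPL32, the mitochondrial relative of bacterial L32, whose maturation by a membrane protease is a step of ribosome assembly in yeast and mouse, had 4845 and 3552. That is 1.36-fold lower (Entrez gene 420773, chromosome 2). MRPL1, a relative of the bacterial stalk protein L1, had weak signals of 170 and 132, just above the reporter signal, a log2 ratio of -0.37. These were the 3 lowest ratios among large subunit members, and none reached 1.5-fold as deposited, whereas all 3 did with the hybridisation controls at 0.

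Next in the large subunit came MRPL40, with 4383 and 3435 (log2 ratio -0.35), a mitochondria-specific protein of the central protuberance. MRPL53 had 6115 and 5079 (-0.27), but a dimmer second probe set gave the opposite sign. MRPL54 had 7917 and 6627 (-0.26). MRPL22 and MRPL12 closed the 8 lowest large subunit genes. MRPL22, which lines the exit tunnel, had 1140 and 990.1 (-0.20). MRPL12, whose bacterial relative forms the flexible stalk that recruits translation factors, had 6969 and 6159 (-0.18).

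At the other end of the large subunit, MRPL34 had the highest ratio, from signals of 48.4 and 110. Both lie under the highest reporter signal, so no fold is given for it. MRPL21 had 124 in wild-type cells against 190 in PTIP deficient cells and was at least 1.44-fold higher. The highest ratio among well-measured large subunit genes was that of MRPL44, a protein with a ribonuclease III-like fold near the exit tunnel (Entrez gene 424795, chromosome 9). Its signal was 8485 in wild-type cells against 12235 in PTIP deficient cells, 1.44-fold higher.

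The remaining 5 of the 8 highest large subunit genes lay close together. MRPL18 had 6754 and 8209, a log2 ratio of 0.28. MRPL10, the anchor of the stalk, had 2517 and 3024 (0.26). MRPL46 had 2858 and 3385 (0.24). The widest of these 3 was 1.22-fold apart. MRPL3, a relative of the bacterial protein that reaches into the peptidyl transferase centre, had 12903 and 15192 (0.24). MRPL13 had 12848 and 15125 (0.24). MRPL14, which in human cells binds the assembly factor MALSU1, was also bright, with 15205 and 14866 (-0.03).

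In the small subunit, MRPS10 had the lowest ratio, with 4537 in wild-type cells against 3238 in PTIP deficient cells, 1.40-fold lower (Entrez gene 421385, chromosome 3). Its bacterial relative sits in the head of the subunit. MRPS12, the relative of the bacterial decoding centre protein S12, had 3738 and 2848 and was 1.31-fold lower. MRPS17 had 4833 and 3953 (log2 ratio -0.29). MRPS23 had 4318 and 3611 (-0.26), and with MRPS17 it shares chromosome 19. MRPS33 had 11713 and 10289 (-0.19). None of these 5 lowest small subunit genes reached 1.5-fold as deposited, and MRPS10, MRPS12 and MRPS17 did with the hybridisation controls at 0.

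The highest small subunit ratio was that of MRPS22, a mitochondria-specific protein in which human mutations cause a mitochondrial disease (Entrez gene 424824, chromosome 9). Its signal was 8295 in wild-type cells against 11720 in PTIP deficient cells, 1.41-fold higher. MRPS35 had 1946 and 2614 and was 1.34-fold higher. MRPS14 had 1014 and 1243 (log2 ratio 0.29), and MRPS9 2414 and 2890 (0.26). MRPS2, the relative of a bacterial protein that binds near the site where mRNA leaves the subunit, had 2817 and 3168 (0.17). The bright small subunit genes MRPS6 and MRPS31 differed little, with 12138 and 12655 for MRPS6 and 11283 and 12051 for MRPS31. MRPS30 had 4658 and 4558.

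MRPL30 and MRPL33 were under the floor in both arrays, with signals of 0.59 and 19.5 for MRPL30 and of 22.4 and 29.9 for MRPL33. Each has 1 probe set on the array, so no ratio is given, and a probe set that fails to detect its transcript cannot be told apart from a low transcript level. The 63 members at or above 131.5 in both arrays all lay within 1.5-fold as deposited, and their ratios ranged from -0.53 to 0.53 with a median of 0.03. Among other genes at or above 131.5 in both arrays, 9.61% were past 1.5-fold higher and 8.52% lower.

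As deposited, genes of one part of the ribosome did not share a direction, in groups made with the values known. Of 7 genes of the central protuberance, 4 were above 0 and 3 below, from -0.35 for MRPL40 to 0.28 for MRPL18. MRPL27, MRPL38, MRPL46, MRPL48 and MRPL55 lay between them. Of 8 genes around the mouth of the exit tunnel, 4 were above and 4 below 0. Of these, MRPL45, which in human mitochondria lies next to the inner membrane, had 3365 and 3359, MRPL23 had 6349 and 6023, and MRPL24 had 8728 and 8816. Such signals are nearly equal in both arrays, so the signs of these genes say little. The stalk genes MRPL10 and MRPL12 pointed in opposite directions as deposited. With the hybridisation controls at 0 both were below 0 (-0.03 and -0.47). For the relatives of bacterial head proteins MRPS7, MRPS9, MRPS10 and MRPS14 the range was from -0.49 to 0.29. MRPL18 and MRPS14, the highest of the central protuberance and head genes, were at -0.015 and -0.0030 with the hybridisation controls at 0. Under that setting all genes of both groups therefore lay below 0. Members not named so far include MRPL58, which releases stalled peptides, and MRPS27, a protein with pentatricopeptide repeats. These fall within the ranges given for their subunits by construction, because those ranges span all members at or above 131.5 in both arrays.

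Different probe sets for the same gene are the only repeat measurement in these data. For pairs of probe sets that both lay in the members' signal quartiles, the SD of the difference in log2 ratio was 0.16 across 150 genes, equal to 0.12 for a single probe set. Over the 13 members with at least 2 measured probe sets the same SD was 0.51, or 0.36 per probe set. The pair of MRPS16 differed most, by 1.46, and enters this SD. The ratios of MRPS10 (-0.49) and MRPS22 (0.50), from 1 probe set each, were larger in size than both values per probe set. They are the lowest and the highest small subunit ratios, picked for their size. The comparison therefore cannot show that they exceed probe error. These SDs cover probe error but neither the spread between cultures nor a difference between the hybridisations. MRPL41, MRPS10, MRPL44 and MRPS22 have 1 probe set each.

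The 2 brightest probe sets had the same sign in 9 of these 13 members, and the median size of the difference between their log2 ratios was 0.13. MRPL32 was lower with both, at -0.45 and -0.33. MRPS7 was lower with both (-0.16 and -0.32), and MRPL9 higher with both (0.19 and 0.16). MRPS16, the relative of bacterial S16, stood apart in this respect. Its brightest probe set had 3169 and 3443, and the second had 550 and 218, a log2 ratio of -1.34. The other 2 gave 0.24 and 0.30, so 3 of 4 probe sets of MRPS16 were higher and 1 was lower. MRPL20 had -0.02 with its brightest probe set (10974 and 10852) and 0.68 with the next, whose signals were 192 and 309. For MRPL53 the brightest gave -0.27 and the second, at 337 and 414, gave 0.30.

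**Figure D3:**
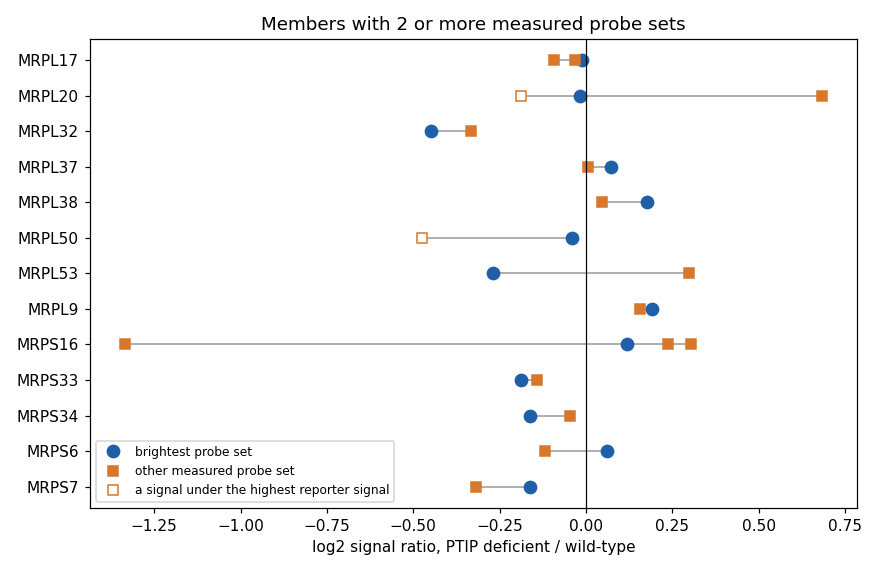
Log2 signal ratio (PTIP deficient over wild-type) of each probe set measured in both arrays, for the 13 members with at least 2. Circles are the brightest probe sets, squares the others, and open marks have a signal under 131.5; MRPS16 spans from -1.34 to 0.30, and MRPL9 from 0.16 to 0.19.

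The members lie on 22 chromosomes, as placed by the GRCg7b RefSeq annotation. The 3 on chromosome 9 were all higher in PTIP deficient cells. MRPL44 had a log2 ratio of 0.53, MRPS22 of 0.50 and MRPL47, a relative of bacterial L29 at the exit tunnel with signals of 808 and 943, of 0.22. The other genes of chromosome 9 were higher too, with a median of 0.38 over 259 genes, the highest of 31 chromosomes, and 78.8% of them lay above 0. Among the 29 of these with signals in the members' quartile range, 26 were above 0 and the median was 0.50. Relative to the chromosome median, the log2 ratio was 0.15 for MRPL44, 0.12 for MRPS22 and -0.16 for MRPL47. The ratios of both genes with the highest well-measured values were therefore close to that of their chromosome. Whether the clones differ in the copy number of chromosome 9 was not tested.

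Away from chromosome 9, the medians of the members' chromosomes covered a narrow range, from -0.17 (Z) to 0.20 (chromosome 25). The members' own ratios there had an SD of 0.27. The values below therefore cannot show whether members follow their chromosomes. Across 64 members on chromosomes with at least 20 other measured genes, Pearson's r between a member's ratio and its chromosome's median was 0.23, and it was 0.01 over the 61 members outside chromosome 9. Members of 1 chromosome share its median, so these values describe the points and are no test. A member's sign matched that of its chromosome in 31 of 64, with the members of chromosome 9 included. Other genes of the Z chromosome had a median of -0.17 over 401 genes, with 33.4% above 0. Among the 33 of these with signals in the members' quartile range, the median was -0.17 and 8 were above 0. The 5 members on Z lay between -0.11 and 0.00059, with 4 below 0. The pair on chromosome 19, MRPS17 and MRPS23, was at -0.29 and -0.26, against a chromosome median of 0.05. Among the 29 other genes of chromosome 19 with signals in the members' quartile range, the median was -0.05 and 13 were above 0. On chromosome 1, the 10 members had a median of 0.11, with 8 above 0. The 1161 other genes there had a median of -0.02, with 47.6% above 0, and were not narrowed to the members' quartile range. MRPS12 lies on chromosome 38, which had too few measured genes for a median. MRPS11 and MRPL46 are direct neighbours on chromosome 10 among protein-coding genes, and their log2 ratios were 0.03 and 0.24.

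**Figure D4:**
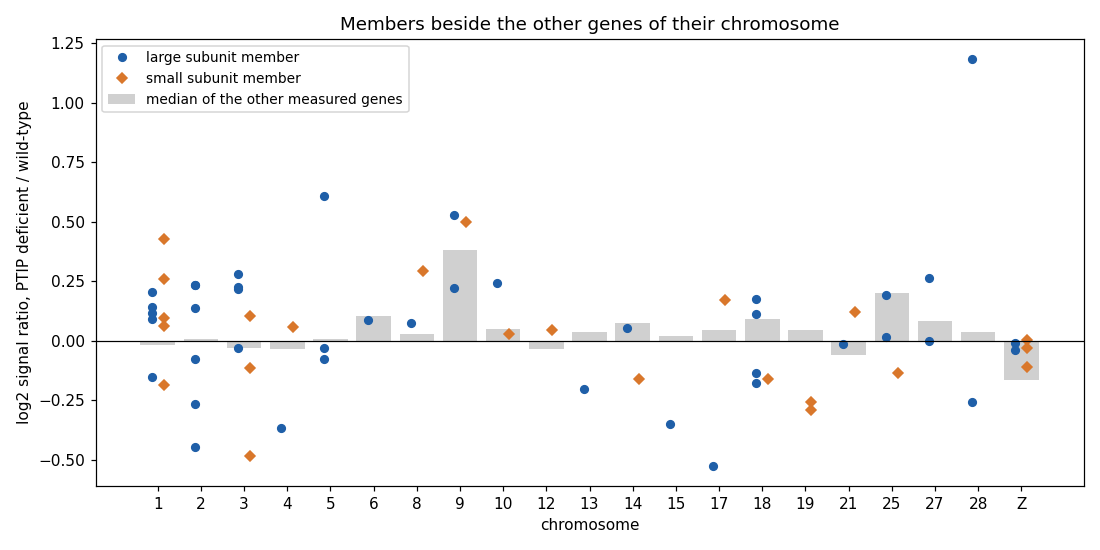
Log2 signal ratio (PTIP deficient over wild-type) of the measured members by chromosome, without MRPS12, whose chromosome 38 had too few measured genes for a median. Large subunit genes are circles, small subunit genes are diamonds, and bars give the median of the other measured genes of each chromosome. Chromosome 9 has the tallest bar, at 0.38, and its 3 members lie above 0, whereas members of most other chromosomes scatter on both sides of 0.

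Proteins of the mitochondrial ribosome with other symbols were looked at beside the members. Of 5 listed, 4 were on the array and measured. DAP3, a GTP-binding protein of the small subunit also named MRPS29, had 5158 in wild-type cells against 8880 in PTIP deficient cells, 1.72-fold higher (log2 ratio 0.78), a larger difference than any well-measured member showed. It has 1 probe set and lies on chromosome 25, whose other genes had a median of 0.20. Of the genes outside the members there, 11 had signals in the members' quartile range. All 11 were above 0, with a median of 0.31. CHCHD1 had 927 and 1274 (0.46). PTCD3, a pentatricopeptide repeat protein of the small subunit, had 3332 and 3572 (0.10), and AURKAIP1 had 4084 and 3875 (-0.08).

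The genes that act on or beside mitochondrial ribosomes were read in the same way. With the hybridisation controls at 0, the medians of all of these lists were below 0. Of 10 measured translation factors, 7 were above 0 and the median was 0.11. Over the 9 with both signals at or above 131.5 the median was 0.02, and 0 passed 2-fold. The gene left out there was SLIRP, a partner of LRPPRC in stabilising mitochondrial mRNAs. Its wild-type signal of 98.01 was under 131.5, and its PTIP deficient signal was 226. With 131.5 in place of the wild-type signal, SLIRP was at least 1.72-fold higher as deposited. GFM1, the elongation factor that moves the ribosome along the mRNA, had 4402 and 6665 and was 1.51-fold higher. It lies on chromosome 9, and its second probe set gave a similar log2 ratio (0.67 against 0.60). MTRF1L, a release factor, had 570 and 702 (0.30).

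The ribosome assembly and rRNA modification factors were listed next. Of their 19 measured genes, 12 were above 0, 2 passed 2-fold, 1 in each direction, beside 5.03% higher and 4.46% lower over all genes, and the median was 0.09. That median was -0.079 without the _s_at, _x_at and _a_at probe sets. RBFA, whose bacterial relative binds maturing small subunits, had 1688 in wild-type cells against 620 in PTIP deficient cells. It was 2.72-fold lower, and its second probe set, at 454 and 206, gave -1.14 on the log2 scale against -1.44. MRM1, a methyltransferase of the large subunit rRNA, had 513 and 1054 and was 2.05-fold higher with its only probe set. Its log2 ratio of 1.04 was 0.74 with the hybridisation controls at 0 and 0.99 with the chromosome median subtracted, both under 2-fold. MTG2, a GTPase of large subunit assembly, had 1224 and 2444 (log2 ratio 0.997). It lies on chromosome 20, where the other genes had a median of 0.37.

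Among 15 measured mitochondrial aminoacyl-tRNA synthetases and partner genes, 8 were above 0, 0 were past 2-fold and the median was 0.0030. NARS2, which charges the asparagine tRNA, had 339 and 576 (0.77). FARS2, for phenylalanine, had 1113 and 1662 (0.58). TARS2, for threonine, had 121 and 84.4, both under 131.5. Of 14 measured genes of mitochondrial DNA maintenance, transcription and RNA processing, 5 were above 0, 0 were past 2-fold and the median was -0.02. POLG, the mitochondrial DNA polymerase, had 496 and 768 (0.63). Its second measured probe set was also higher, but both of its signals (66.0 and 123) were under 131.5. TFB2M, a transcription factor of mitochondrial DNA, had 2111 and 1369 (-0.63), with both measured probe sets lower. ELAC2, which cuts the 3' ends of tRNAs, had 2380 and 3652 (0.62), with both higher.

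**Figure D5:**
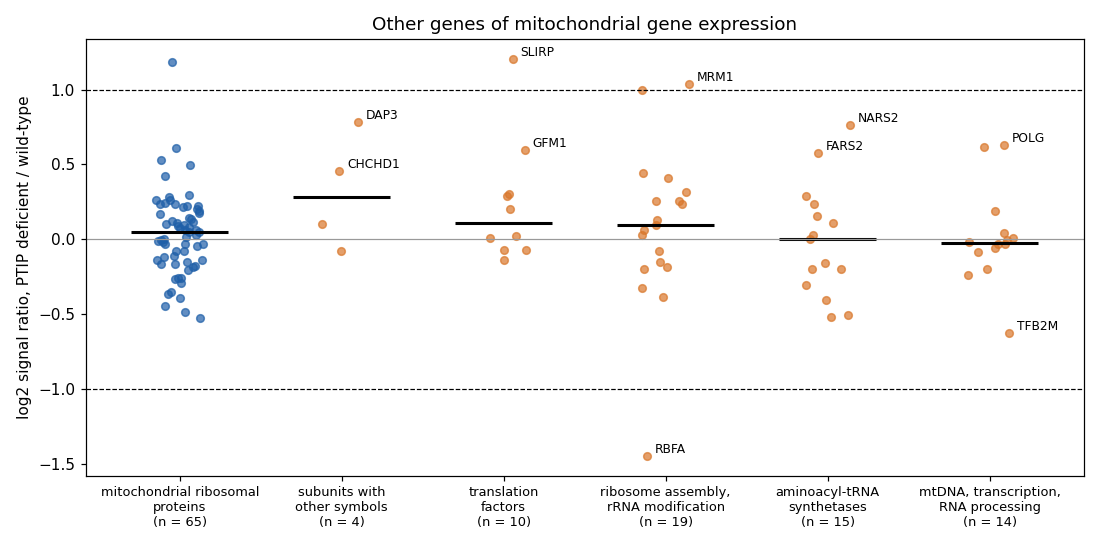
Log2 signal ratio (PTIP deficient over wild-type) of measured genes in the 65 mitochondrial ribosomal proteins and 5 related lists, 1 point per gene, with bars at the medians and dashed lines at 2-fold. The medians lie between -0.02 and 0.11 except for the 4 subunits with other symbols, at 0.28; RBFA at -1.44 and MRM1 at 1.04 are the points past 2-fold with signals above 131.5.

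For the genes of the cytosolic ribosome, which translates all nuclear transcripts, the sign of the ratios depended on the scaling. Of 66 cytosolic ribosomal protein genes, all measured, 60 were above 0 as deposited, with a median log2 ratio of 0.15. Over all genes measured, 52.6% were above 0 and the median was 0.03. The count was 56 with arrays centred on the median and 57 with chromosome medians subtracted. It was 47 with a smooth curve over signal (lowess) subtracted. The curve was fitted over all measured probe sets, those of these genes included, so that count is not independent of their ratios. Against these counts, 30 of 66 were above 0 with quantile normalization, which gives equal ranks of both arrays equal signals. Most of these genes are among the brightest of both arrays, so that setting draws their ratios towards 0 by construction. Its count is no check of their direction. With the hybridisation controls at 0 the count was 5 of 66, and the median was -0.14. That setting lowers every gene by the same amount and put the median of all genes outside the mitochondrial set at -0.27. The cytosolic median was thus above that of other genes there too. Their quartiles were 0.10 and 0.18 as deposited, and those of the mitochondrial set were -0.14 and 0.19. The mitochondrial count above 0 was 36 of 65 both as deposited and with quantile normalization. The cytosolic signals had medians of 31644 and 34977 in the 2 arrays, far above those of the mitochondrial set (4537 and 3953), so the spreads were measured in different signal ranges. The difference between the lists was not tested. The 3 cytosolic genes with the largest absolute log2 ratios were RPS13 (signals of 38.8 and 127), RPL22L1 (3162 and 6137) and RPL3L (118 and 74.4). Both signals of RPS13 and of RPL3L were under 131.5. RPL22L1 had a log2 ratio of 0.96 and lies on chromosome 9.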

How the data were processed

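Total RNA of 1 wild-type and 1 PTIP deficient DT40 clone was made into biotin-labelled cRNA and hybridised to a 1-colour Affymetrix chicken array, per the labels' protocols. The deposited values are linear signal intensities, 1 for each of 38535 probe sets, made by the authors in GCOS per the submitters' processing notes. The GCOS version, the algorithm and the genome build of the array are not stated in the sources used here. The mean of values between percentiles 2 and 98 was equal in both arrays, so no further scaling was applied. Such scaling hides any difference in RNA per cell.

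The 96 manufacturer's controls were left out. In the platform annotation 27178 probe sets had 1 symbol, 177 several (not named) and 11180 none. All 67 members matched GRCg7b RefSeq by Entrez identifier, which gave chromosome and gene order. Coordinates are not printed because the build of the array's design is not known. The log2 ratio is PTIP deficient minus wild-type, taken where both signals reached the floor. With 1 array per genotype no test was run; the number of arrays limits the precision. Lists were matched by symbol or unique RefSeq synonym. Named genes are PAXIP1, members past 2-fold or under the floor, the 8 highest and lowest of the large and the 5 of the small subunit, the 3 brightest of each, members whose probe sets differ in sign by at least 1, MRPS18A and MRPS30, and the 3 largest absolute ratios of each list; other names were chosen with values known. Members and lists were chosen with earlier results of these data known. Promoter and protein sequences were not analysed here. The calculations were tested on simulated data and made with Python 3.11.15, numpy 2.4.6, pandas 2.3.3 and statsmodels 0.14.6.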

Additional observations from a re-analysis of the deposited data

How the results depend on the processing

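The medians, their difference and the counts were recomputed under 11 alternative settings and 2 more chosen after seeing the data (without the chromosome 9 members, and without MRPS36). The median over all members became -0.25, that of the large subunit -0.22 and that of the small subunit -0.28 with the hybridisation controls at 0, where 5 members were above 0 and 0 at least 2-fold higher. The small subunit median was also -0.013 with arrays centred on the median, -0.030 with the mean of the measured probe sets and -0.071 without _s_at, _x_at and _a_at probe sets. That last setting kept 41 members, with 23 above 0 and a large minus small difference of 0.16. Fewer genes enter by its construction. Of its members 3 were past 1.5-fold higher, beside 13.7% of other genes. Of these, 1 had both signals at or above 131.5, MRPL20, there represented by a dimmer probe set with signals of 192 and 309. The large minus small difference was -0.063 with chromosome medians subtracted. The count at least 2-fold higher was 0 with the floor at percentile 60 or at the highest reporter signal and 2 with no floor, the second being MRPL30. Without the chromosome 9 members the median was 0.02 over 62 genes. The same controls put 7 members at least 1.5-fold lower, against 0 as deposited, and the mean over probe sets gave a large minus small difference of 0.12. The cause of the other shifts was not tested. No paired analysis was possible because there is 1 array per genotype, and no replicate could be left out. Signals of 4 members under 131.5 limit what can be said of them.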
